A study of Mus musculus with 13 samples.

Results

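The genes described here code for the subunits of microtubules and for the motors that walk on them: tubulins, kinesins and the subunits of cytoplasmic dynein. They were taken by name from a table of RNA-seq counts of sorted mouse Sertoli cells. Of 27111 named genes, 78 had a name beginning with Kif, Tuba, Tubb, Tubg, Dync or Dynl followed by a letter or digit of that nomenclature. Leaving out 2 tubulin names and 1 pseudogene gave 75 members: 6 alpha, 7 beta and 2 gamma tubulins, 42 kinesins, 16 dynein subunits and 2 genes that share only the name. Those last 2 are Kif1bp, a protein that binds kinesins, and Kif16bos, a noncoding RNA beside Kif16b. Of the 75 members, 68 had enough reads to be tested and 7 did not (Kif16bos, Tubb2b, Tubg2, Tubb1, Kif12, Tubb4a and Kif28).

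Sertoli cells were sorted from the testes of adult wild-type males, given as Bl6 wt. The sort used DNA content, size and MitoTracker signal (diploid, large, high mitochondrial activity), and each of the 13 libraries came from a sample with its own number. The 7 males of the MSUS group had been separated as pups from their mothers for 3 h a day at unpredictable times between postnatal days 1 and 14, and during separation the mothers were put through a swim at 18 °C for 5 min or a restraint of 20 min. The 6 control males were not in this treatment. Litter was not analysed here, so males of the same litter count as separate samples. The sort enriches Sertoli cells and does not remove all others, which bears on the genes that germ cells also use.

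Microtubules are hollow tubes built from pairs of alpha and beta tubulin and started from gamma tubulin. Most kinesins carry cargo toward the growing end of the tube, whereas cytoplasmic dynein carries it back, and some kinesins take microtubules apart or build the spindle of dividing cells. The Sertoli cell is tall and does not divide in the adult. Its microtubules run along its length, and they serve in shaping the cell and in moving spermatids that are attached to it. Spermatids in turn build a flagellum and a microtubule manchette and use tubulins and kinesins of their own, so the members include both isoforms common in somatic cells and isoforms best known from germ cells.

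Total estimated counts were 13087203 to 18649945 in controls and 12701776 to 15693938 in MSUS samples, of which 20.7 to 26.7% fell on features without a gene name and were left out. Members were measured about as evenly as other genes. The median SD between controls was 0.19 log2 units for the 68 members tested and 0.20 for all 14421 genes tested, and 39 of the 68 lay above the median gene in level. The 12 Sertoli cell markers, which include Clu, Sox9 and Wt1, averaged 8.69 ± 0.08 log2 CPM (counts scaled to the library total, SD, n = 6) in controls and 8.66 ± 0.09 (SD, n = 7) in MSUS samples. Spermatid RNA was present in every library. The study proposes that transcripts of elongated spermatids, such as Prm2, likely remain from spermatids that Sertoli cells took up. That origin was not tested here. The 8 elongated spermatid markers, which include Prm1 and Tnp1, averaged 7.21 ± 0.24 in controls (range 6.82 to 7.45) and 7.34 ± 0.46 in MSUS samples (6.59 to 7.89), and all 8 passed the count filter. The 7 round spermatid markers averaged 3.73 ± 0.11 and 3.79 ± 0.44, and the 8 spermatocyte markers 5.01 ± 0.15 and 4.80 ± 0.39. The library MSUS 11 was the highest of all 13 in each of these 3 germ cell lists. In such bulk samples, fewer cells of a type and less RNA per cell cannot be told apart. None of the 9 cell type lists differed between the groups after adjustment (two-sided exact permutation test, adjusted p from 0.236 to 0.908). The smallest unadjusted p was that of the 5 endothelial markers, at 2.06 ± 0.20 log2 CPM in controls and 2.31 ± 0.16 in MSUS samples (exact permutation p = 0.0262), and their part in the differences between the groups was not tested.

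How well the count table separates the tubulins depends on their sequence. Tubulin proteins are alike over most of their length and differ in the acidic tail at their end, which modifying enzymes and motors recognise. The coding sequences of Tuba1a and Tuba1b are 98.3% identical. Over whole transcripts, only 22.96% of the 31-base words of Tuba1a occur in no other gene, against 31.1% for Tuba1b, 44.7% for Tuba1c and 51.6% for Tuba3a. For Tuba4a and Tuba8 the shares are 97.2% and 98.1%. The split of reads among Tuba1a, Tuba1b and Tuba1c is therefore an estimate of the quantifier, and their sum does not depend on that split. Tuba3a shares 45.5% of its words with a tubulin gene left out here, so its count is such an estimate too. The annotated exons of Tuba1a and Tuba1b also overlap those of another gene on the same strand over 26.2% and 22.7% of their length, so the sum is in part an estimate as well.

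The last 60 coding bases, stop codon included, are shown for 4 beta tubulins, since they show how far reads of these genes can be told apart. They were read from GENCODE vM21 (build GRCm38) on the coding strand, and capitals mark bases that differ from Tubb5 in an alignment of the whole coding sequences.
Tubb5: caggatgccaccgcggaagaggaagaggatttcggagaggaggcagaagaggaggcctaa
Tubb4b: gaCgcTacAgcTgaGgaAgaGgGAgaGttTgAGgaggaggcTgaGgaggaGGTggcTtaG
Tubb2a: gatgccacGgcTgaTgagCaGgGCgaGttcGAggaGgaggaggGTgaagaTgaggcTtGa
Tubb2b: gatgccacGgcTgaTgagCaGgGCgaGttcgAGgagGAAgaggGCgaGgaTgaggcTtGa

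Tubb5 (chr17:35834982-35835041) and Tubb4b (chr2:25222308-25222367) are 82.2% identical over the coding sequence and Tubb4b has 20 capitals in this stretch. Of the 31-base words of Tubb5, 96.5% occur in no other gene, so its counts are nearly all its own. The share is 51.4% for Tubb4b, which has a pseudogene copy, 43.6% for Tubb2a (chr13:34074468-34074527) and 56.9% for Tubb2b (chr13:34127471-34127530). All 4 lie on the minus strand. Tubb2a and Tubb2b are 96.5% identical to each other.

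A small set of genes made up nearly all RNA of the tubulins described here. Levels of different genes were compared per kilobase of transcript. Because the median annotated transcript of some genes is a short fragment, each such level is given for the median transcript length and, beside it, for the longest transcript. Tuba1a stood at 8.41 ± 0.23 log2 CPM per kb in controls by either length (SD, n = 6), Tubb5 at 9.27 and 7.66 ± 0.13, Tuba1b at 7.95 and 7.33 ± 0.20, and Tubb4b, known from cilia and flagella, at 7.72 and 7.32 ± 0.11. The difference between Tuba1b and Tubb4b by longest transcript was smaller than the spread of either. Tuba3a, the alpha tubulin of the male germ line, followed at 6.61 ± 0.20 by either length. Tubg1, which starts new microtubules, was at 4.02 and 3.58 ± 0.16.

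As shares of the RNA of the 6 alpha tubulins described here, per kb in controls and by longest transcript, Tuba1a held 52.3 ± 1.77%, Tuba1b 24.8 ± 0.88%, Tuba3a 15.1 ± 2.1%, Tuba1c 6.54 ± 0.71%, Tuba4a 0.665 ± 0.136% and Tuba8 0.593 ± 0.098% (SD, n = 6). By median transcript the first 3 shares were 44.4, 32.3 and 12.8%. Of the RNA of the 7 beta tubulins described here, Tubb5 held 55.2 ± 1.78% and Tubb4b 43.5 ± 1.86% by longest transcript, and 74.0% and 25.3% by median transcript. Tubb6 held 1.02 ± 0.16%, and Tubb1, Tubb2a, Tubb2b and Tubb4a together stayed under the share of Tubb6 in the group means. These 4 genes and Tubg2 had few reads. Tubb2a had 6 to 17 reads per control library, Tubb2b 0 to 7, Tubb1 0 to 4 and Tubb4a 0 to 2, and Tubg2 had 0 to 6. In MSUS samples the shares of Tuba1a and Tubb5 were 52.2 ± 3.97% and 55.8 ± 4.35%, with means within the range of the controls. Single MSUS samples spread wider, from 45.4 to 57.7% for Tuba1a against 49.7 to 54.8% in controls. For Tubb5 they ran from 47.7 to 60.7%, against 52.4 to 57.2% in controls.

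**Figure D1:**
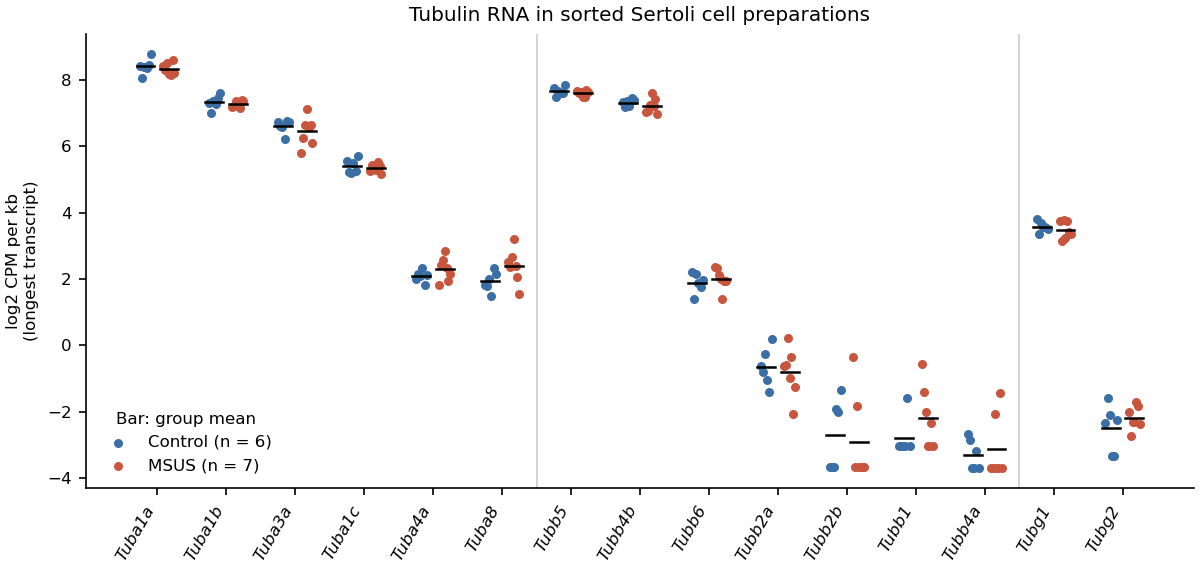
Level of each tubulin in every sample, in log2 CPM per kb of the longest transcript, with alpha, beta and gamma tubulins separated by grey lines. Blue points are the 6 controls, red points the 7 MSUS samples and black bars the group means. Tuba1a, Tubb5, Tuba1b and Tubb4b lie highest, Tubb2a, Tubb2b, Tubb1, Tubb4a and Tubg2 lie lowest, and control and MSUS points overlap for every gene.

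Among the kinesins, 2 genes stood above the others by longest transcript. Kif5b, the common heavy chain of kinesin-1 that moves vesicles and mitochondria, was at 8.09 log2 CPM per kb by median and 6.35 ± 0.09 by longest transcript. Kif21a (chr15:90933276-91049948), a kinesin-4 that holds microtubule growth in check, was at 6.47 and 6.40 ± 0.10. In log2 CPM, without length, Kif21a ranged over the controls from 8.98 through a median of 9.07 to 9.27, and Kif5b from 8.83 through 8.92 to 9.05. Both genes thus varied little over the controls, although Kif21a in Control 10 lay apart at 9.27, against 8.98 to 9.09 in the other controls. Kif3b, a kinesin-2 subunit that works in cilia, came next by longest transcript at 4.33 ± 0.11. By median transcript Kif1a, an axonal vesicle motor, lay between Kif5b and Kif21a at 6.54, but its median transcript measures 651 bases and its longest 8206, and by the latter it was at 2.89 ± 0.11.

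The 12 kinesins of mitosis and cytokinesis all passed the filter, although adult Sertoli cells do not divide. Their mean level in controls ranged over the 6 libraries from 3.25 to 3.47 log2 CPM. Kif20a, needed for cytokinesis, was at 4.24 ± 0.27, Kifc1, a spindle pole motor, at 2.43 ± 0.24 and Kif18b, which shortens spindle microtubules, at 1.97 ± 0.48 (SD, n = 6). The spermatocyte markers given above were present in the same libraries, and their part in these levels was not tested.

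Every subunit class of cytoplasmic dynein was present. Dync1h1 (chr12:110601452-110666945), the motor subunit, ranged over the controls from 8.71 through a median of 8.83 to 9.39 log2 CPM. Per kb it was at 9.66 by median transcript, which is 599 bases long, and at 5.07 ± 0.24 by longest transcript, which is 14342 bases long. The light chain Dynll1 was at 8.22 and 6.40 ± 0.10 log2 CPM per kb, its relative Dynll2 at 6.50 and 6.41 ± 0.14, and Dynlt3, a light chain of the Tctex family, at 6.64 and 4.40 ± 0.13. By longest transcript the highest subunit was Dynlt1b at 6.56 ± 0.15, a gene singled out after its value was seen. Only 13.1% of its 31-base words are its own, because Dynlt1a, Dynlt1b, Dynlt1c and Dynlt1f are at least 99.7% identical over their coding sequences from each to the next, so their counts are shared out by the quantifier.

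**Figure D2:**
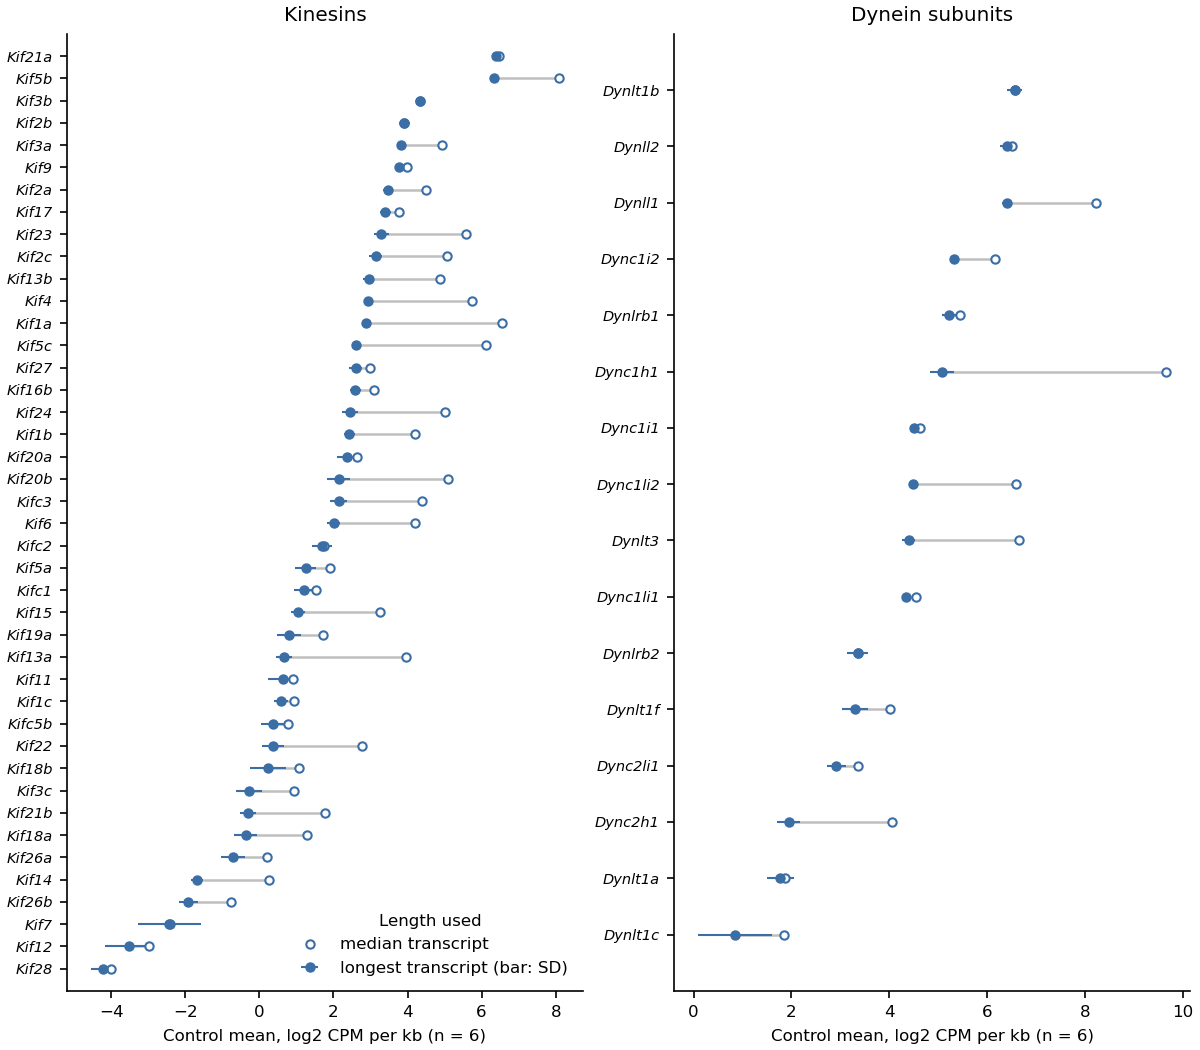
Mean level in the 6 controls of 42 kinesins (left) and 16 dynein subunits (right), in log2 CPM per kb. Filled points use the longest transcript, with the SD between controls as a bar, open points use the median transcript, and a grey line joins both. Kif21a and Kif5b lie above all other kinesins by longest transcript, and the long grey line of Dync1h1 shows its fall from 9.66 to 5.07.

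The next comparison set related genes against each other within each control. The 25 somatic isoforms had a median level of 4.96 ± 0.10 log2 CPM per kb over the 6 controls and the 10 germ-cell isoforms 3.54 ± 0.09, or 4.33 ± 0.09 and 2.94 ± 0.14 by longest transcript. Of 15 pairs of related genes, 6 have a second gene from the germ-cell list (Tuba3a, Kif17, Kif9, Kifc1, Kif2b and Dynlrb2), and the other 9 are relatives with other known uses. In 14 of the 15 pairs, the first gene of the pair was higher in all 6 controls (exact sign-flip permutation test, two-sided, p = 0.0312 each, the smallest that 6 samples allow, adjusted over the 15 pairs 0.0335). By longest transcript it was higher in all 6 for 12 pairs. The reversed differences of Kif2a and Kif2b and of Kif1b and Kif9 by that length also had p = 0.0312 (exact sign-flip permutation test). This p therefore marks only a constant order within the controls under the length assumed. The pairs were also chosen with earlier results of these data known.

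For 12 pairs the order was the same by either length. Tuba1b exceeded Tuba8, a divergent alpha tubulin, by 6.02 ± 0.24 log2 units by median and 5.40 by longest transcript, and Dync1h1 exceeded Dync2h1, the heavy chain that works inside cilia, by 5.61 ± 0.13 and 3.13. Dynlt3 exceeded Dynlt1a by 4.77 ± 0.33 and 2.62, but Dynlt1a is 1 of 4 Dynlt1 genes that share reads, and their sum stood at 6.99 ± 0.08 log2 CPM without length against 5.52 ± 0.13 for Dynlt3. Dynlrb1 exceeded Dynlrb2, a roadblock light chain of testis and ciliated cells, by 2.07 ± 0.27 and 1.87. Kif5b exceeded Kif5c, the kinesin-1 chain of neurons, by 1.99 ± 0.09 and 3.74, and Dync1i2 exceeded Dync1i1, the intermediate chain best known from neurons, by 1.54 ± 0.12 and 0.81. Kifc3, a minus-end motor of epithelia, exceeded Kifc1 by 2.85 ± 0.46 and 0.95. However, Kifc1 shares 53.2% of its 31-base words with Kifc5b. The sum of Kifc1 and Kifc5b stood at 3.14 ± 0.23 log2 CPM without length, against 3.90 ± 0.24 for Kifc3. For Tubg1 against Tubg2 and Tubb2a against Tubb4a, the second gene was at the detection limit, and the counts carry the comparison: 207 to 295 reads of Tubg1 per control library against 0 to 6 of Tubg2, and 6 to 17 of Tubb2a against 0 to 2 of Tubb4a.

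Tuba1a exceeded Tuba3a by 1.80 ± 0.25 log2 units by either length, a fold of 3.49. This fold rests on how the quantifier shared out reads of both genes. Tuba1a shares words with Tuba1b and Tuba1c, and Tuba3a with a tubulin gene left out here. Tubb5 exceeded Tubb4b by 1.55 ± 0.11 and 0.34, and Kif3b exceeded Kif17, a kinesin-2 of cilia and spermatids, by 0.56 ± 0.19 and 0.93. For 3 pairs the order turned with the length used. Kif2a exceeded Kif2b, its relative in the family that takes microtubules apart, by 0.59 ± 0.20 by median transcript but lay 0.45 below it by longest transcript (difference -0.45). Kif1b exceeded Kif9, a kinesin of flagella, by 0.22 ± 0.18 in 5 of 6 controls (p = 0.0625, exact sign-flip permutation test) but the difference was -1.33 by longest transcript. The difference of Dynll1 and Dynll2 was 1.72 ± 0.17 by median and -0.01 by longest transcript (exact sign-flip permutation p = 0.938).

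**Figure D3:**
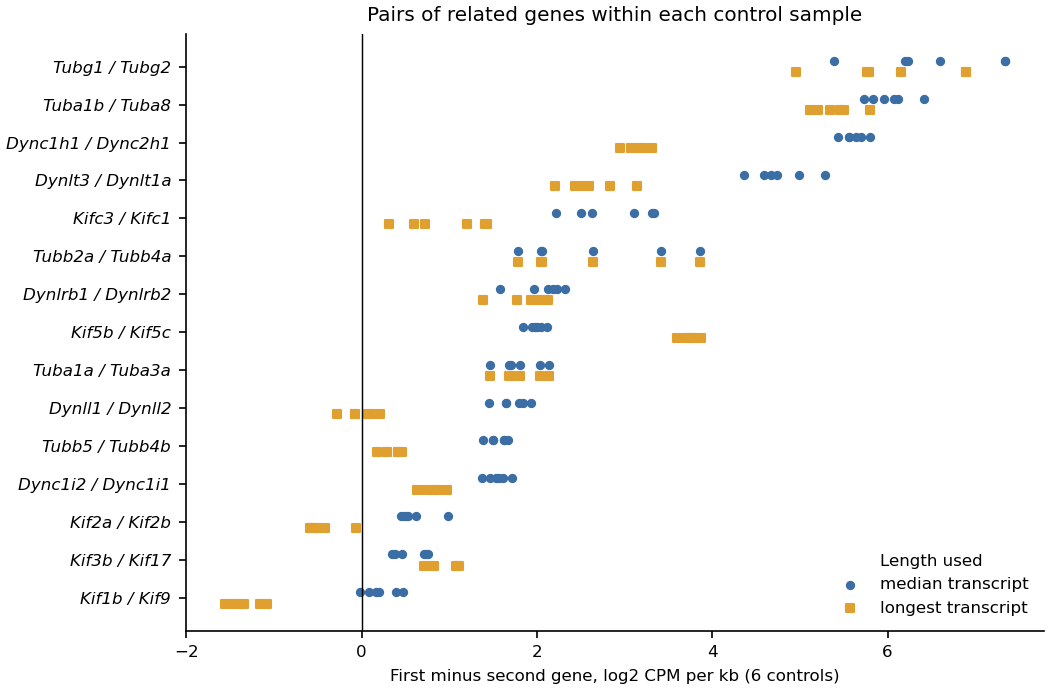
Difference of first and second gene of each pair within each of the 6 controls, in log2 CPM per kb. Blue circles use the median transcript length, yellow squares the longest transcript, and the vertical line marks no difference. Points of 12 pairs lie right of the line by both lengths, whereas Kif1b against Kif9, Kif2a against Kif2b and Dynll1 against Dynll2 move across it.

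The 10 germ-cell isoforms lay on both sides of the median gene tested, which was at 4.31 log2 CPM. Tuba3a, Kif9, Kif17, Kif2b and Kif27 lay above it, and Kif6 (3.83 ± 0.18), Kif19a (2.58 ± 0.33), Kifc1 (2.43 ± 0.24), Dynlrb2 (2.43 ± 0.21) and Kifc5b (1.77 ± 0.33, 29 to 49 reads per control library) below it. Their levels in each library were set against the spermatid markers of the same library. Tuba3a ranged over the controls from 6.81 through 7.27 to 7.35 log2 CPM and over the MSUS samples from 6.41 through 7.18 to 7.73. Kif17 ranged from 5.02 through 5.17 to 5.41 and from 4.67 through 5.29 to 6.16, and Kif2b from 4.87 through 5.07 to 5.31 and from 4.64 through 5.00 to 6.17. Kif27, a relative of the ciliary kinesin Kif7, ranged from 4.73 through 4.97 to 5.15 and from 4.75 through 4.85 to 5.97. In all 4 genes the MSUS samples spread wider than the controls on both sides or above, and the highest library was MSUS 11.

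Against the elongated spermatid score, the mean of its 8 markers, none of 34 isoforms passed over the 13 samples with p adjusted over all genes (two-sided permutation test, smallest adjusted p = 0.242, and 1.17% of all genes passed). At an unadjusted p under 0.05 there were 3 of 34, against 10.2% of all genes. All 3 had a positive r (5.34% of all genes, with 4.91% negative), namely Kif17 (r = 0.681, rho = 0.670, permutation p = 0.00915), Kif27 (r = 0.678, rho = 0.621, permutation p = 0.00818) and Kif2b (r = 0.650, rho = 0.390, permutation p = 0.0147). Of the 10 germ-cell isoforms 8 had a positive r, with a median of 0.312, against 7 of 24 somatic isoforms, with a median of -0.143. Without MSUS 26 and MSUS 11, the samples farthest from the median score, r fell to 0.408 for Kif17, 0.557 for Kif27 and 0.322 for Kif2b, and the median of the germ-cell isoforms was -0.0252, so the positive median rests on those samples. Taken within each group, it was -0.00927 (controls) and 0.455 (MSUS). The r of Kif27 was 0.534 in controls and 0.691 in MSUS samples, and that of Kif17 0.572 and 0.703.

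With the 7 round spermatid markers as the score, 9 of the 34 isoforms had an unadjusted permutation p under 0.05, against 16.3% of all genes, so many genes moved with this score. These were 5 of 10 germ-cell and 4 of 24 somatic isoforms, 6 with a positive r (10.6% of all genes) and 3 with a negative r (5.77%). With p adjusted over all genes, 2 isoforms and 1.21% of all genes passed. They were Kif2b (r = 0.913, rho = 0.725, permutation p = 0.00036, adjusted 0.0436) and Kif17 (r = 0.885, rho = 0.731, permutation p = 0.00031, adjusted 0.0406). Positive r that did not pass were those of Kif27 (r = 0.824, rho = 0.269, permutation p = 0.00699, adjusted 0.132), Kif9 (r = 0.809, rho = 0.753, permutation p = 0.00475, adjusted 0.113) and Tuba3a (r = 0.776, rho = 0.582, permutation p = 0.002, adjusted 0.0805). Kif21a ran the other way (r = -0.735, rho = -0.736, permutation p = 0.00213, adjusted 0.0811). By rho, with p adjusted over the 34 isoforms, none passed. The adjusted permutation p of rho was 0.0567 for Kif2b, Kif17, Kif9 and Kif21a. Without MSUS 11, r was 0.722 for Kif2b, 0.726 for Kif17, 0.413 for Kif27, 0.731 for Kif9, 0.716 for Tuba3a and -0.830 for Kif21a. Without MSUS 11 and MSUS 1, the samples farthest from the median of this score, r was 0.747, 0.608, 0.387, 0.664, 0.575 and -0.765 in the same order, so the size of r for Kif27 fell furthest and that of Kif21a did not fall. The r of Kif2b was 0.818 in controls and 0.918 in MSUS samples, whereas that of Kif17 was -0.376 in controls and 0.953 in MSUS samples. The other 5 germ-cell isoforms, Kif6, Kif19a, Kifc1, Kifc5b and Dynlrb2, had r from -0.318 to 0.304.

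**Figure D4:**
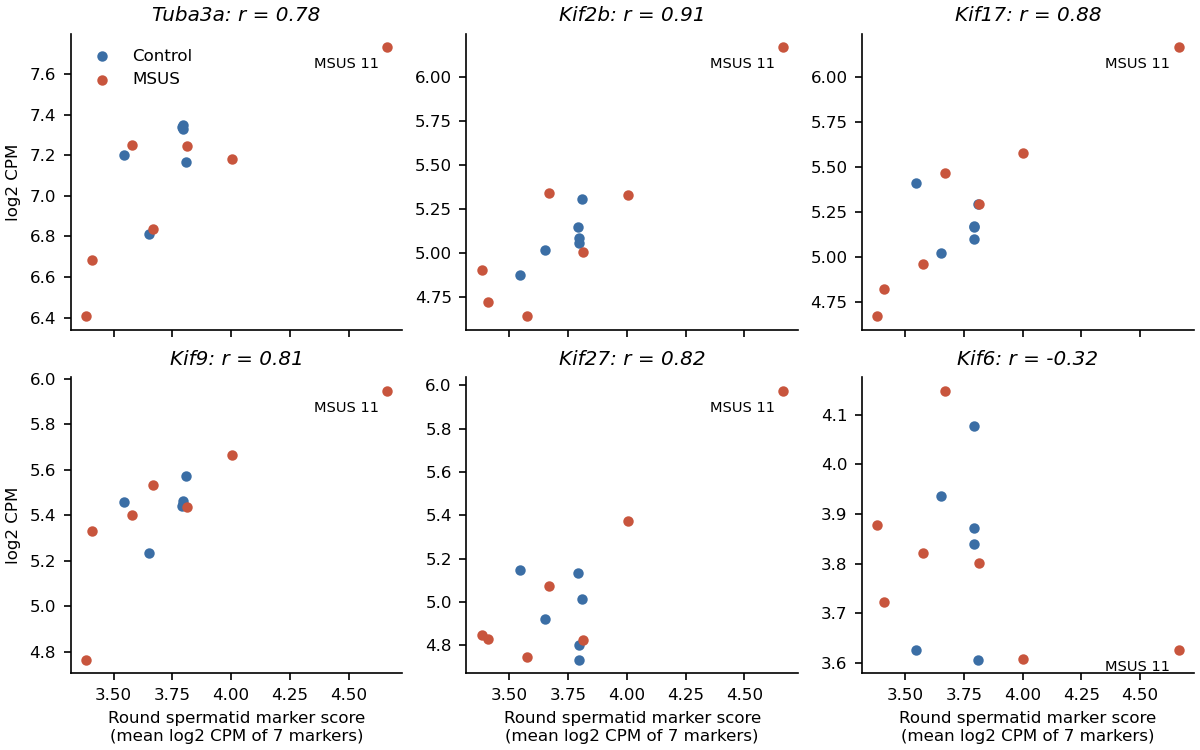
Level in log2 CPM of 6 germ-cell isoforms (vertical axis) against the round spermatid marker score of the same library (horizontal axis, mean log2 CPM of 7 markers). Blue points are 6 controls and red points 7 MSUS samples. MSUS 11, at the right of every panel, is also the highest library for Tuba3a, Kif2b, Kif17, Kif9 and Kif27, but not for Kif6 (r = -0.318).

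The study's comparison asked whether Sertoli cells of MSUS males differ from those of controls. Most members did not pass: at the unadjusted p under 0.05 that the study used, 4 of 68 members did (5.88%), against 5.42% of all 14421 genes tested, so the members' share was near the background. All 4 were kinesins and all were higher in MSUS samples (3.02% of all genes were called higher and 2.4% lower), and no tubulin and no dynein subunit was among them. None passed the adjusted threshold (limma, smallest adjusted p = 0.878), nor did any of the 14421 genes, a background of 0%. By edgeR and by DESeq2, 5 members had an unadjusted p under 0.05, against 5.5 and 5.79% of all genes, and 0 members passed the adjusted threshold. Leaving out single samples gave 2 members without Control 9, Control 12, Control 14, Control 24, MSUS 5 or MSUS 26, 6 without Control 10, Control 22 or MSUS 11, and 9 without MSUS 13. The share of all genes moved as well, to 3.78, 3.99, 4.69, 4.4, 3.74 and 5.02% in the first 6 of these settings, to 7.7, 5.53 and 7.35% in the next 3, and to 7.15% without MSUS 13. The split of calls depended on the scaling: 55.7% of all genes called were higher in MSUS samples with TMM and 40.9% with library size alone, where 2 members were called, both higher. Of the members, 33 were higher and 35 lower, while 49.5% of all genes were higher. The median log2 fold change of the members was -0.01, against -0.00175 for all genes. For each named gene, a two-sided exact permutation test of its log2 CPM over the samples, added after seeing the data, is given beside the limma value.

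Kif5c ranged over the controls from 5.28 through a median of 5.39 to 5.46 log2 CPM and over the MSUS samples from 5.34 through 5.56 to 6.10. Its MSUS samples fell apart: MSUS 1, MSUS 5 and MSUS 6 had 6.10, 5.81 and 6.03, while MSUS 11, MSUS 13, MSUS 23 and MSUS 26 had 5.48, 5.34, 5.35 and 5.56, close to or within the control range. The log2 fold change was 0.29 ± 0.12 (SE), with an unadjusted limma p = 0.0229 (adjusted p = 0.878) and an exact permutation p = 0.0571, and 5 of 7 MSUS samples lay above every control. So Kif5c passed by limma but not by the permutation test. Without MSUS 1 or MSUS 6 the limma p was 0.0529 or 0.0561.

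Kifc2, a minus-end motor of kinesin-14 known from neurons, ranged from 3.06 through 3.38 to 3.68 in controls and from 3.40 through 3.68 to 4.01 in MSUS samples, with 4 of 7 above every control. Its log2 fold change was 0.34 ± 0.15 (SE), with an unadjusted limma p = 0.0355 (adjusted p = 0.878) and an exact permutation p = 0.0431. All 7 MSUS samples lay above the control mean, but the groups overlapped. The p was above the threshold, between 0.0662 and 0.0820, without Control 9, Control 12, Control 24, MSUS 5, MSUS 6 or MSUS 26.

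Kif13a and Kif13b, kinesin-3 motors of endosomes and other membrane cargo, moved by similar amounts. Kif13a ranged from 3.27 through 3.37 to 3.83 in controls and from 3.58 through 3.70 to 3.92 in MSUS samples, with a log2 fold change of 0.27 ± 0.12 (SE), an unadjusted limma p = 0.0342 (adjusted p = 0.878) and an exact permutation p = 0.0157. Kif13b ranged from 5.91 through 6.08 to 6.28 and from 6.04 through 6.28 to 6.74, with 0.22 ± 0.10 (SE), an unadjusted limma p = 0.0355 (adjusted p = 0.878) and an exact permutation p = 0.0460. Their coding sequences are 60.7% identical, and at least 99.6% of the 31-base words of each are its own. The call of Kif13a was lost without Control 9, Control 12, Control 14, Control 24, MSUS 11 or MSUS 26 (p from 0.0577 to 0.0843), and that of Kif13b without Control 9, Control 12, Control 14, MSUS 5 or MSUS 26 (p from 0.0605 to 0.0839). Both were also lost with scaling by library size alone (p of 0.0568 and 0.0558).

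The tubulin with the largest difference was Tuba8. It ranged from 2.67 through 3.09 to 3.51 log2 CPM in controls and from 2.73 through 3.59 to 4.40 in MSUS samples, and 5 of 7 MSUS samples exceeded every control. Its log2 fold change was 0.46 ± 0.22 (SE), with an unadjusted limma p = 0.0511 (adjusted p = 0.878) and an exact permutation p = 0.0752, and with 61 to 152 reads in controls and 77 to 227 in MSUS samples. The highest library was MSUS 11 and the lowest MSUS sample MSUS 26. Without MSUS 26 the log2 fold change was 0.62 (p of 0.00412), and the p was also under 0.05 without Control 22 or MSUS 23 (0.0339 and 0.0404), with edgeR (0.0225), DESeq2 (0.0141) and sample quality weights (0.0204), and with the elongated spermatid score as a covariate (0.0392). Without MSUS 11 the log2 fold change was 0.32 (p of 0.106), and without Control 14 it was 0.39 (p of 0.106). The abundant tubulins moved little: the log2 fold change was -0.07 ± 0.10 for Tuba1a, -0.05 ± 0.08 for Tuba1b, -0.06 ± 0.06 for Tubb5 and -0.11 ± 0.09 for Tubb4b. Their 95% intervals reached from -0.27 to 0.13, -0.21 to 0.11, -0.18 to 0.07 and -0.29 to 0.08. Of 11 tubulins tested, 3 were higher and 8 lower, with a median of -0.06, while 49.5% of all genes tested were higher.

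No member passed in the lower direction. The smallest p values were those of Kif20a (-0.29 ± 0.15, p = 0.0620, exact p = 0.107), the light chain Dynlrb2 (-0.35 ± 0.22, p = 0.126, exact p = 0.190), Kif18b (-0.47 ± 0.33, p = 0.162, exact p = 0.255), Dynll2 (-0.09 ± 0.07, p = 0.174, exact p = 0.169) and Kif26b, a kinesin without motor activity (-0.33 ± 0.24, p = 0.189, exact p = 0.198), all unadjusted by limma voom. Kif20a ranged from 3.91 through 4.24 to 4.66 log2 CPM in controls and from 3.51 through 3.97 to 4.34 in MSUS samples. Its limma p was 0.180 without Control 22 and 0.151 without MSUS 1. It was called lower without Control 9, Control 12, MSUS 11 or MSUS 13 (p from 0.0265 to 0.0455), as were Dynlrb2 without MSUS 13 (p of 0.0471) and Dynll2 without Control 22 (-0.15, p of 0.0286). Without Control 9 the value of Dynll2 was -0.05, and without MSUS 1 that of Kif18b was -0.24. The exons of Kif20a overlap genes of the opposite strand over 29.3% of their length, and the strand setting of the quantification is not given in the sources used here. The same limit holds for other members, such as Tuba4a (37.3%), Kifc3 (27.5%), Kif2a (19.2%) and Tuba8 (16.3%).

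By family, the kinesins were higher in 23 of 40 and lower in 17, with a median log2 fold change of 0.03, and the mitotic kinesins higher in 5 of 12, with a median of -0.08. The dynein subunits were higher in 7 of 16, and of all genes tested 49.5% were higher. Both heavy chains and both intermediate chains had positive values (Dync1h1 0.15 ± 0.10, Dync2h1 0.03 ± 0.13, Dync1i1 0.11 ± 0.07, Dync1i2 0.06 ± 0.05), while 8 of the 9 light chains had negative ones, with a median of -0.09, and none of these passed the test. The 4 Dynlt1 genes among them share reads: their sum was 6.99 ± 0.08 log2 CPM in controls and 6.88 ± 0.23 in MSUS samples (p = 0.297 in a two-sided exact permutation test). The sum of Tuba1a, Tuba1b and Tuba1c was 9.94 ± 0.21 and 9.87 ± 0.13 (exact permutation p = 0.529), and that of Kifc1 and Kifc5b, which are 98.1% identical, 3.14 ± 0.23 and 3.02 ± 0.27 (exact permutation p = 0.414). Adjusted over the 3 sums all p were 0.529. The germ-cell isoforms were higher in 3 of 10, with a median of -0.06, and the somatic isoforms in 13 of 24, with a median of 0.03.

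**Figure D5:**
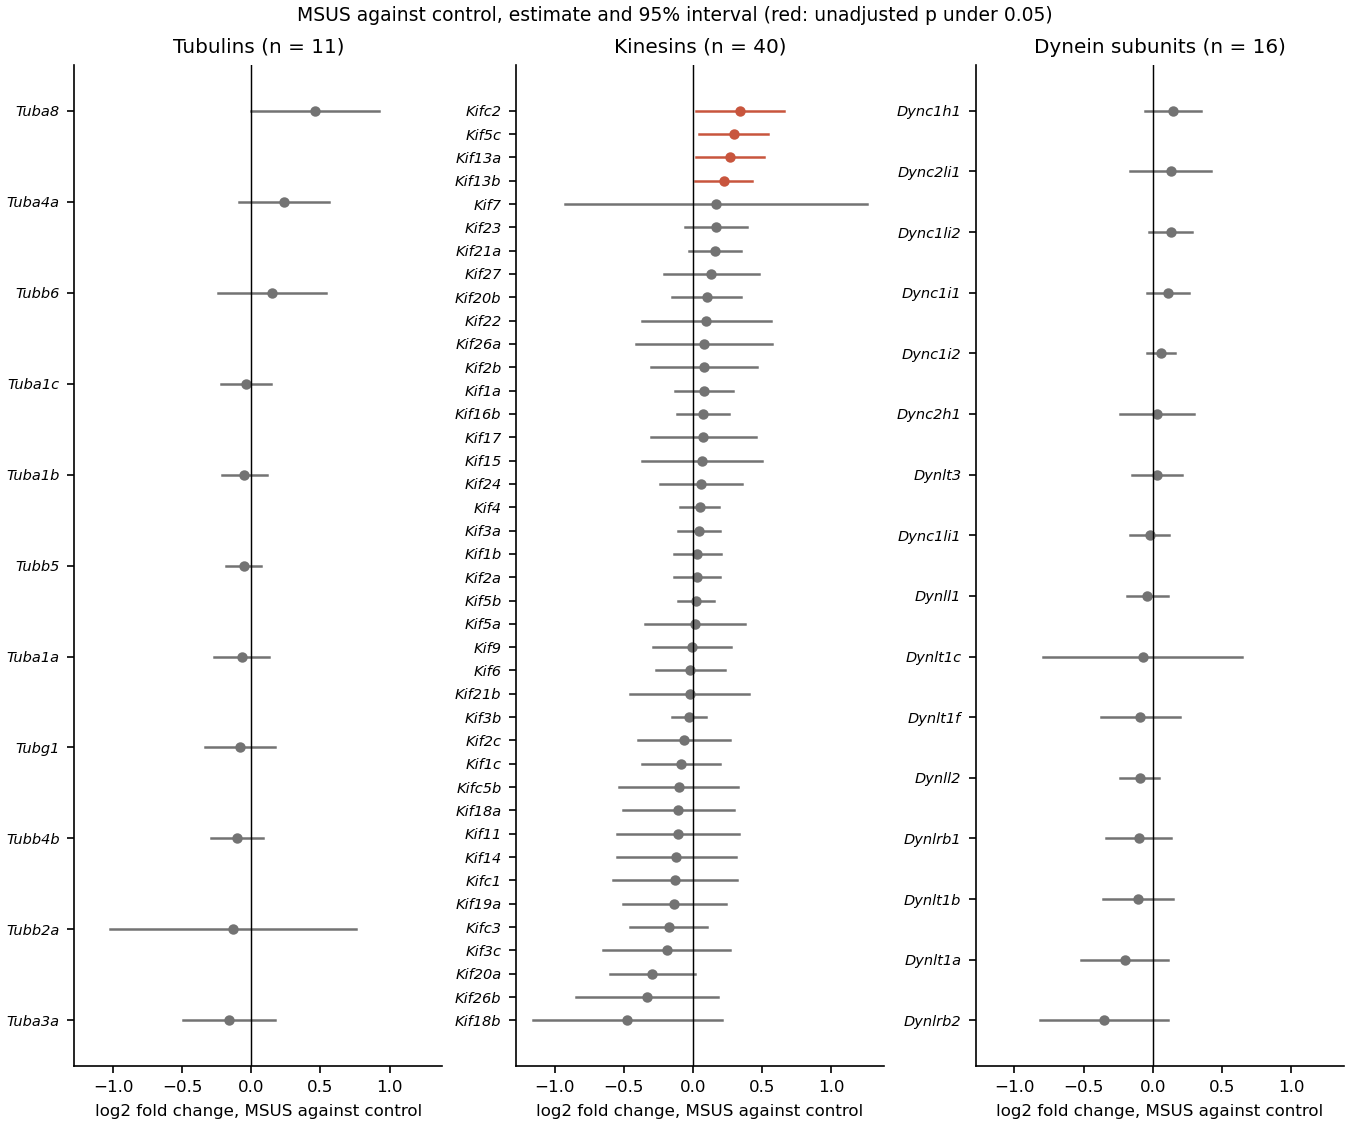
Log2 fold change of MSUS against control with its 95% interval for 11 tubulins, 40 kinesins and 16 dynein subunits, ordered within each family. Red marks an unadjusted limma p under 0.05. The 4 red genes are the kinesins Kifc2, Kif5c, Kif13a and Kif13b, and the intervals of all other genes include 0.

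The balance within pairs was also compared between the groups. None of the 15 pairs passed after adjustment (smallest adjusted p = 0.441 in a two-sided exact permutation test). The smallest p values were those of Tuba1b against Tuba8, from 5.02 ± 0.24 to 4.50 ± 0.56 log2 units (exact permutation p = 0.0583), and of Kif5b against Kif5c, from 3.56 ± 0.09 to 3.29 ± 0.29 (exact permutation p = 0.0589). The pair Tuba1a and Tuba3a stood at 2.06 ± 0.25 in controls and 2.14 ± 0.49 in MSUS samples.

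Genes that work with the members were described from 6 further lists at the same threshold, with unadjusted limma p values. Of all 14421 genes tested, 5.42% passed this threshold, 3.02% higher and 2.4% lower. Of 21 genes of dynactin and the dynein adaptors, 1 passed: Ndel1, which regulates dynein (0.12 ± 0.05, p = 0.0340, exact p = 0.0105), followed by Dctn1, the dynactin subunit that binds dynein (0.13 ± 0.06, p = 0.0569, exact p = 0.0641). Of 11 genes of the gamma tubulin complex, 2 were higher: Tubgcp3, a subunit of the ring that starts microtubules (0.18 ± 0.07, p = 0.0223, exact p = 0.00291), and Pcnt, a scaffold of the centrosome (0.26 ± 0.10, p = 0.0227, exact p = 0.0571). Of 18 axonemal dyneins, 1 was lower, the light chain Dnal4 (-0.27 ± 0.12, p = 0.0317, exact p = 0.0355), and next came the heavy chain Dnah11 (0.22 ± 0.15, p = 0.156, exact p = 0.136). None passed among 9 kinesin light chains and adaptors, 26 microtubule-associated proteins and 20 genes of tubulin folding and modification. The nearest by limma there were Mapk8ip3 (0.21 ± 0.14, p = 0.152, exact p = 0.211) and Trak1, an adaptor of mitochondria (0.11 ± 0.08, p = 0.184, exact p = 0.223), Camsap2, which binds free minus ends (0.17 ± 0.09, p = 0.0731, exact p = 0.109), and Hdac6, which removes acetyl groups from tubulin (0.14 ± 0.07, p = 0.0650, exact p = 0.0921). The exact test alone put Map9, which stabilises microtubules (0.17 ± 0.09, p = 0.0769, exact p = 0.0425), and Arl2, a cofactor of tubulin folding (-0.30 ± 0.16, p = 0.0848, exact p = 0.0408), under 0.05. All 6 lists had a median log2 fold change between -0.03 and 0.07, and no gene in them passed the adjusted threshold (limma, adjusted p of 0.878 or more).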

How the data were processed

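RNA was measured in 13 sorted Sertoli cell samples, with libraries made from 5 ng of total RNA with a stranded kit. The authors trimmed reads with Trim Galore 0.6.5, quantified them with Salmon 1.1.0 against GENCODE transcripts and deposited estimated counts per gene, which were rounded here. Of 54281 features, 27170 carry no gene name and were left out, 20.7 to 26.7% of counts. All columns were matched to a sample. Counts were scaled by TMM and fitted with limma voom 3.58.1 (edgeR 4.0.16, DESeq2 1.42.0, R 4.3.3) over all 13 samples. TMM, voom and limma follow the study's methods, while group as the only term, the filterByExpr filter and the removal of unnamed features were chosen here, with Benjamini-Hochberg adjustment over all genes tested. For levels, a prior count of 2 was added before taking log2 CPM. Gene lengths come from GENCODE vM21 (GRCm38), in which all 75 members were found. Single values were tested by exact permutation over samples, and correlations with 100000 permutations. The exact permutation p of named genes, the adjustment of correlations over all genes and the sums of near-identical genes were added after seeing the data. The fit was also run on simulated counts with known changes and independent samples, and no result given here rests on that run.

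The members, pairs and lists were chosen with earlier results of these data known. Named in the text are the germ-cell isoforms, the genes of the pairs, the 3 highest members per length in each family, every member with p under 0.05 and the 5 smallest p in each direction, and the 2 smallest p of each further list, beside the isotypes whose shares or sequences are given. Alternatives were other tests, scalings, filters and gene lengths, a spermatid covariate and leaving out each sample. Sample numbers name single animals and pair no samples. Coding ends of alpha tubulins are not reported here. P-values measure the spread between these samples only.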

Additional observations from a re-analysis of the deposited data

Results flagged for a closer look

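Among 80 groups of samples examined for the named genes, 3 held a library that lay apart from the others by more than the 95% critical value of Dixon's test, where chance alone gives about 4. Dync1h1 in Control 10 was at 9.39 log2 CPM (9.3859), against 8.71 to 8.93 in the other 5 controls. Kif21a in the same library was at 9.27 (9.2735), against 8.98 to 9.09. Tuba3a in Control 14 was at 6.81 (6.8140), against 7.17 to 7.35 in the other 5 controls.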

How the results depend on the processing

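No paired analysis was possible because no sample number occurs in both groups. Scaling by library size alone left 2 members with p under 0.05, both higher, against 5.49% of all genes. Leaving out single samples gave 2 to 9 members with p under 0.05 (2 without Control 9, Control 12, Control 14, Control 24, MSUS 5 or MSUS 26, and 9 without MSUS 13), 1 to 7 higher and 0 to 2 lower (1 without Control 9, Control 12 or Control 22, and 2 without MSUS 11 or MSUS 13), and a median log2 fold change of the members from -0.0365 to 0.0335. That median was 0.0291 with edgeR and 0.0338 with DESeq2. With single samples left out, the share of all genes with p under 0.05 ran from 3.74% (without MSUS 5) to 7.7% (without Control 10). The count of members with adjusted p under 0.05 was 0 under each test, scaling, filter and left-out sample tried. The exact permutation test, added after seeing the data, moved Kif5c to p = 0.0571 and left the other 9 members tested for MSUS on the same side of 0.05. Mean levels per kb in controls depended on the length: tubulins 3.12 by median transcript, 2.54 by exon union, 2.69 by longest transcript, 3.62 without length and 2.74 with a prior count of 0.5; kinesins 2.87, 1.22, 1.56, 3.85 and 2.77; dynein subunits 5.21, 3.86, 4.18 and 5.59. Pair differences that changed sign were Kif1b against Kif9 (-1.68 by exon union, -1.33 by longest transcript), Kif2a against Kif2b (-0.72 and -0.45) and Dynll1 against Dynll2 (-0.66, -0.00738 and, without length, -0.15). With p adjusted over the 34 isoforms, 6 passed with the round spermatid score in place of 0 with the elongated. Counts adjusted over this chosen list alone have no share of all genes to stand beside. At an unadjusted permutation p under 0.05, 16.3% of all genes passed with the round score and 10.2% with the elongated. With the round score, 0 passed by rho, and by r 6 passed without MSUS 11 and 0 without its 2 farthest samples. With p adjusted over all genes 2 passed with the round score and 0 with the elongated, against 1.21 and 1.17% of all genes. The last 4 of these were tried after seeing the data. The median r of the germ-cell isoforms was 0.312, 0.540 with the round score, -0.0252 without the 2 farthest samples, -0.00927 within controls and 0.455 within MSUS samples. The cause of these changes was not tested beyond the gene length and the samples named. Genes with few reads per library, such as Tubg2, could not be compared at this depth.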
